A study of Homo sapiens with 4 samples.

Results

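RNA immunoprecipitation sequencing (RIP-seq) of the m6A reader YTHDF1 was examined here for 9 growth factor signalling genes that matter in gastric cancer. They are 8 receptor tyrosine kinase genes (ERBB2, ERBB3, EGFR, MET, FGFR1, FGFR2, FGFR4 and IGF1R) and the RAS gene NRAS. They were chosen by name. Each row of the authors' deposited peak table that carries one of these symbols was taken, and a gene without a row was counted as not listed. Of the 9 genes, 6 were listed, with 42 of the 26819 distinct windows in the table. No row was listed for FGFR1, FGFR2 and NRAS.

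The cells were SNU638, an established human gastric cancer line. All 4 libraries came from cells made to overexpress YTHDF1, which spent 24 h without serum before IFN-γ was added at 10 ng/ml and left on for a further 24 h. There were 2 IP-YTHDF1 libraries, made from RNA pulled down with YTHDF1, and 2 Input libraries, made from the RNA of the lysate. Cells without IFN-γ or without overexpression were not part of the comparison, so the values describe binding in this single condition. For each 50 bp window the table gives a signal value with its p-value and q-value, and nothing per library. The spread between replicates, the depth of each library and the level of each mRNA are therefore unknown here, and every value below is the authors' deposited value. What scale the signal value has is not known. It is used only to order windows within the table, and a window is said to score its signal value.

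Receptor tyrosine kinases span the cell membrane. Binding of a growth factor outside the cell switches on the kinase inside it, and adaptor proteins on the phosphorylated tail then lead to RAS and the RAF-MEK-ERK chain. In gastric cancer ERBB2 (HER2), EGFR, MET and FGFR2 are known for gene amplification, and ERBB2 is the target of trastuzumab. YTHDF1 binds mRNA that carries N6-methyladenosine (m6A) and is known to influence the translation and decay of that mRNA. The study also examined HER2 in relation to YTHDF1 protein, and the windows in ERBB2 address whether its transcript was among those pulled down.

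A listed window was found in 6 of the 9 genes (66.7%). The background was 31.1%, the share of the 20052 protein-coding genes in RefSeq that had at least 1 listed window. The genes were picked for their role in gastric cancer, and genes that these cells do not express could not be told apart from genes that are expressed and not bound, so no test was made of this share. Their strongest windows ran from 1.68 in ERBB2 to 3.23 in IGF1R, with a median of 2.52. Over all 6679 listed protein-coding genes the median was 2.23. A strongest signal value of at least 2 was reached by 5 of the 6 genes, and the background was 69.5% of listed protein-coding genes. The exception was ERBB2. In order, the strongest listed windows were 3.23 in IGF1R, 3.15 in EGFR, 2.90 in MET, 2.15 in FGFR4, 2.11 in ERBB3 and 1.68 in ERBB2. Some passing windows of IGF1R, EGFR and ERBB2 were not listed, as described below, and a stronger one may be among them. Without a spread between replicates, it cannot be said which neighbours in this order differ.

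The listed windows took a different shape in different receptors. The lists of EGFR, IGF1R and ERBB2 are incomplete and may hold only the 5′-most passing windows, as described below. EGFR, MET and IGF1R had unbroken runs of listed windows that began at the start of the gene and whose strongest windows scored 2.90 to 3.23. Values were lower further along the runs of MET and IGF1R, and rose and fell along that of EGFR. FGFR4 had a single window close to its start. ERBB2 and ERBB3 had scattered windows well inside the gene, the strongest of which scored 1.68 and 2.11. The start of a gene here is the start given by RefSeq on GRCh38.p14, and whether a window lies in an exon, an intron or an untranslated part was not analysed here. Bases at or near the start are shown for the 4 genes with windows there, because sequence was given only for this part. The FGFR4 line starts at base 21, and most of it lies before the listed window. Bases 1 to 30 of FGFR4 would have shown neither of the words marked here. Each line is 30 bases of the plus strand, which is the strand of the transcript, and capitals mark the words GGAC and AGAC, 4-base words that open many of the short sequences in which m6A is found (DRACH, where the last letter is any base but G). In EGFR the base after the marked word is G, so the word is not part of such a sequence there. Whether m6A is present at any of them was not measured here.
EGFR: AGACgtccgggcagcccccggcgcagcgcg
MET: AGACacgtgctggggcgggcaggcgagcgc
IGF1R: agtgtgtggcagcggcggcggcggcgcggc
FGFR4: ggagcgctcgggctgtctgcGGACcctgcc
They lie at chr7:55019017-55019046 for EGFR, chr7:116672196-116672225 for MET, chr15:98648539-98648568 for IGF1R and chr5:177086935-177086964 for FGFR4. The first 3 lines are bases 1 to 30 of the gene, and the FGFR4 line is bases 21 to 50. In EGFR and MET the word AGAC stands at the first base of the gene, 1 base before the first listed window as its position is read here. In FGFR4 the word GGAC begins at base 41, and the listed window begins at base 42. IGF1R, which had the strongest listed window of the 9 genes, held neither word in its first 50 bases on either strand. Of 35116 annotated starts, 18.9% had GGAC and 16.5% had AGAC in the first 50 bases on the transcript strand, and 17.6% and 15.9% had them on the other strand. These matches describe letters only. A start sequence was given for 7 of the 9 genes.

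ERBB2 encodes HER2, the member of the EGF receptor family that has no known ligand of its own and acts as the partner of the others. ERBB2 (ENSG00000141736) lies on the plus strand of chromosome 17, where RefSeq gives it positions 39688094 to 39728658, a length of 40.6 kb. All 9 of its listed windows stood alone, with no 2 of them touching. That is the case in 21 of 854 protein-coding genes with 9 listed windows, a background of 2.46%. The first listed window lay at 39700015 to 39700064, 11.92 kb from the RefSeq start, and had the largest signal value, 1.68, with a q-value of 0.002867. A gap of 50 bp separated it from the window at 39700115 to 39700164, which had a signal value of 1.22 and the same q-value. These were the 2 windows nearest to the 5′ end.

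In the middle of ERBB2 the windows lay far apart. The window at 39707015 to 39707064 scored 1.23 (q = 0.02457). The window at 39708365 to 39708414, near the middle of the gene, had a signal value of 1.59 and the smallest q-value of the gene, 8.14e-06. Strength and significance thus picked different ERBB2 windows. After a gap of 9000 bp came the window at 39717415 to 39717464, which scored 1.62 (q = 0.02678).

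The remaining ERBB2 windows lay toward the 3′ end, from 5.24 to 0.69 kb before it. The window at 39723365 to 39723414 scored 1.35 (q = 0.000398), the only one of this group at or below 0.001. It was followed at 39723915 to 39723964 by a window that scored 1.62 (q = 0.04282). The window at 39725115 to 39725164 scored 1.09 (q = 0.02816). The last one, at 39727915 to 39727964, ended 694 bp before the RefSeq end and had the lowest signal value, 1.08, with a q-value of 0.03558. The listed ERBB2 windows spanned 27.95 kb, next to 27.35 kb in MET, where a single distant window sets the span.

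All 9 ERBB2 windows were below the median signal value of all listed windows, which was 1.84. For windows of protein-coding genes with 9 listed windows the median was lower, 1.7. The median of the ERBB2 windows was 1.35, above the median of 15.9% of the 854 genes with 9 listed windows. The strongest ERBB2 window exceeded the strongest window of 8.2% of listed protein-coding genes and of 4.3% of the 854 genes that also had 9 listed windows. ERBB2 was thus among the genes with many windows and low signal values.

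**Figure D1:**
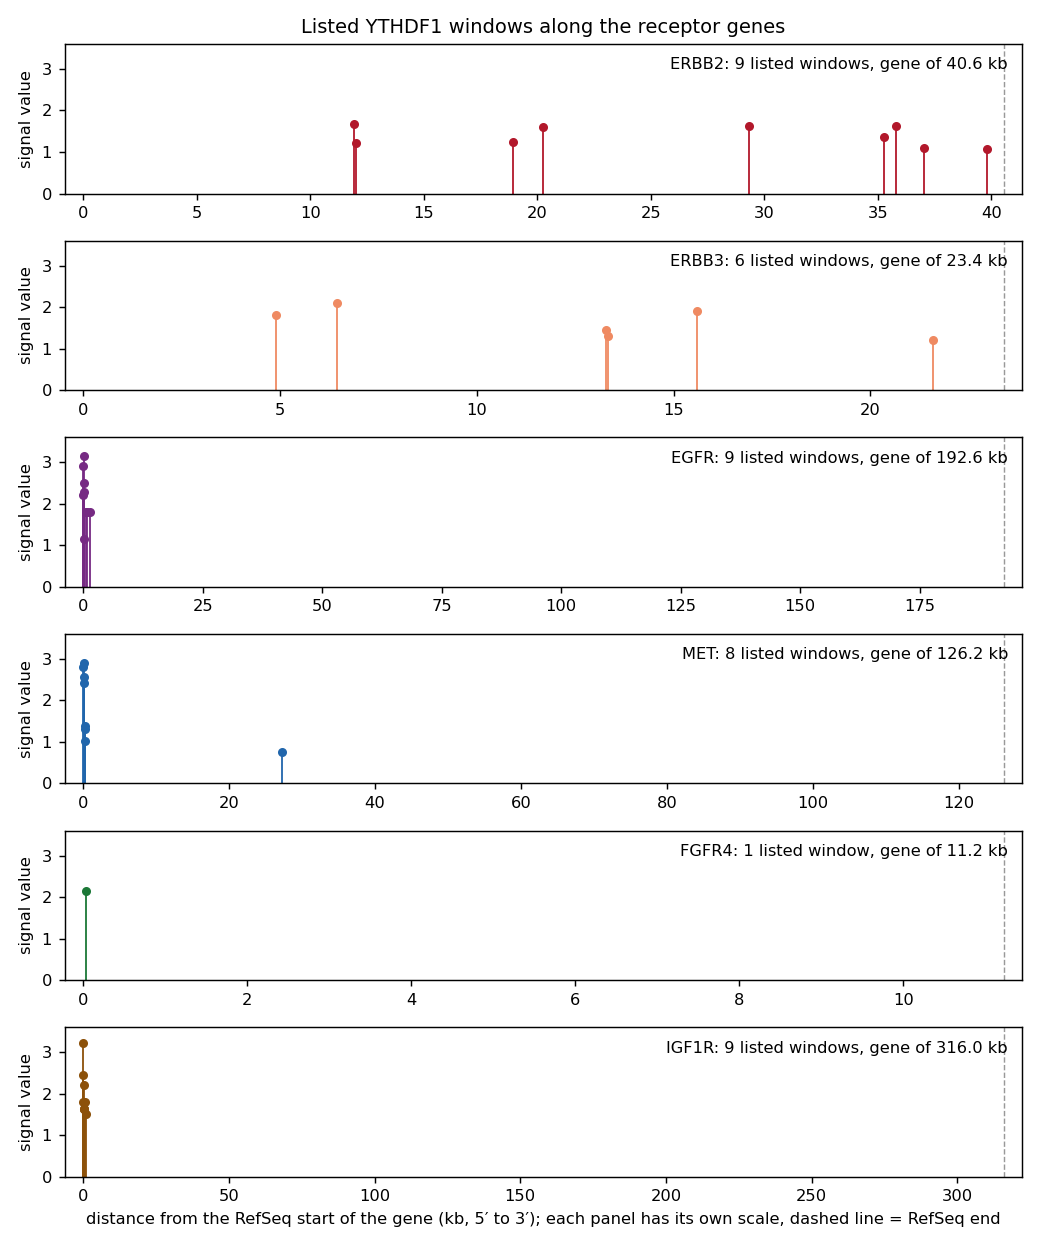
Signal value (vertical axis, authors' scale) of each listed 50 bp window against its distance from the RefSeq start in kb, for the 6 listed receptors. Windows of EGFR, IGF1R and, but for 1, MET crowd at the left edge with values up to 3.23, whereas the 9 ERBB2 windows, from 1.08 to 1.68, and the 6 ERBB3 windows spread along the gene. The lists of EGFR, IGF1R and ERBB2 are incomplete, so passing windows further along these genes may be missing.

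ERBB3 is the partner of ERBB2 that binds neuregulins and has little kinase activity of its own. ERBB3 (ENSG00000065361, plus strand of chromosome 12, RefSeq positions 56080108 to 56103505) had 6 windows in 5 separate places over 16.75 kb. The strongest, at 56086550 to 56086599, scored 2.11 (q = 0.001359). The window with the smallest q-value, 0.001038, lay at 56095700 to 56095749 and had a signal value of 1.91. No ERBB3 window reached a q-value of 0.001, which 5 of the 6 listed receptors did in at least 1 window, against a background of 66.8% of listed protein-coding genes.

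The other ERBB3 windows were weaker. The window nearest to the 5′ end, at 56085000 to 56085049, had a signal value of 1.82 and lay 4.89 kb from the RefSeq start. A touching pair from 56093400 to 56093499 had signal values of 1.45 and 1.30. The last window, at 56101700 to 56101749, had a signal value of 1.20. Among the 42 windows it was the only one that shared bases with a same-strand window of a different gene. AC034102.2 (ENSG00000257411), listed as protein-coding, had windows with signal values of 1.55 and 2.13 that covered 32 and 18 of its 50 bp. Reads of both genes could not be told apart there.

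EGFR is the receptor for EGF and TGF-α. EGFR (ENSG00000146648, plus strand of chromosome 7) is 192.6 kb long in RefSeq. All 9 of its listed windows lay within 1.55 kb at the 5′ end. At least 11 further passing windows were not listed, and where they lie is unknown. A run of 6 touching windows covered 55019018 to 55019317. Along this run the signal values were 2.90, 2.20, 3.15, 2.50, 1.15 and 2.28. The third window, at 55019118 to 55019167, was thus the strongest, and its p-value and q-value are listed as 0. The fifth window formed a dip, with a q-value of 0.02184. The 3 windows further on, up to 55020567, had a signal value of 1.80 each.

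MET is the receptor for hepatocyte growth factor. MET (ENSG00000105976, plus strand of chromosome 7) had 8 windows, 7 of which touched and formed the longest run among the receptors, 350 bp from 116672197 to 116672546. Along it the signal values were 2.80, 2.90, 2.56, 2.41, 1.32, 1.03 and 1.39. The first 4 windows were at or above 2.41 and the next 3 at or below 1.39, so the signal dropped after the fourth window. All 7 had q-values at or below 0.000164, and the fourth is listed with a q-value of 0. The other MET window, 27.3 kb downstream at 116699497 to 116699546, scored 0.76 (q = 0.003967). Of all listed windows, 0.1% had a lower signal value than this one.

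IGF1R is the receptor for insulin-like growth factors. IGF1R (ENSG00000140443, plus strand of chromosome 15) is the longest of these genes at 316.0 kb, and its 9 listed windows lay within 1.10 kb at the 5′ end. At least 10 further passing windows were not listed, and where they lie is unknown. The first window, at 98648540 to 98648589, had the largest signal value of the 42, 3.23, and a q-value of 8.52e-13. It exceeded 98.3% of all listed windows. The next window had 2.45 and a q-value of 1.2e-06. The following 3 windows of the run, up to 98648789, had 1.80, 1.62 and 1.62 and shared a q-value of 0.04112. Beyond the run, the window at 98648940 to 98648989 scored 2.22 (q = 0.000306), above its neighbours, and the other 3 lay between 1.52 and 1.80.

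**Figure D2:**
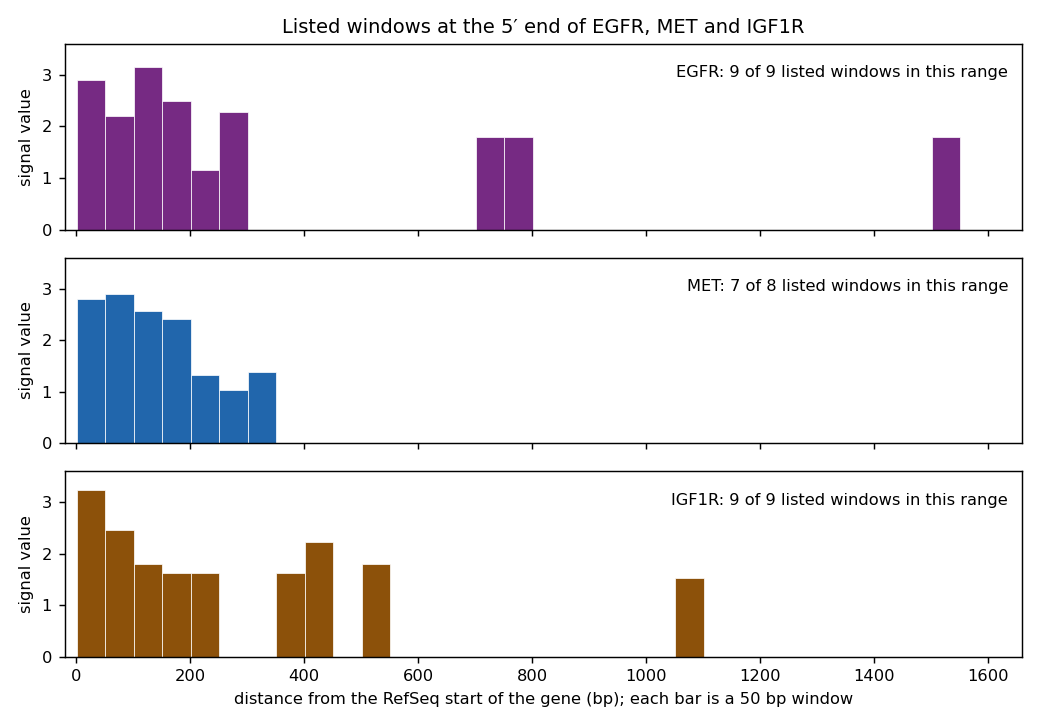
Signal value (vertical axis, authors' scale) of the listed windows in the 5′-most part of EGFR, MET and IGF1R, each bar 50 bp wide at its distance from the RefSeq start. Each gene opens with an unbroken run of 300 bp, 350 bp and 250 bp, in which the largest values are 3.15, 2.90 and 3.23, and 1 EGFR bar of 1.15 interrupts the high values.

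FGFR4 was the only listed member of the FGF receptors. FGFR4 (ENSG00000160867, plus strand of chromosome 5) had a single window at 177086956 to 177087005, 41 bp from the RefSeq start, which scored 2.15 (q = 0.000419). Its strongest window exceeded those of 43.3% of listed protein-coding genes. FGFR1 and FGFR2 had no row, nor did FGFR3 or NRAS, the RAS gene among the 9.

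The first possible window of the gene was listed in EGFR, MET and IGF1R. For these 3 genes the grid of windows begins at the RefSeq start, and among all 1020 listed plus-strand protein-coding genes for which it does so, the first window was listed in 112, a background of 11%. This background was not matched for the number of listed windows, which was 9 in EGFR and IGF1R and 8 in MET. A gene with more windows has more chances of a listed first window. The position of the strongest window was compared in genes with 1 to 8 listed windows, because lists of 9 may be incomplete. In MET and FGFR4, but not in ERBB3, the strongest window began within 500 bp of the RefSeq start. The background was 31.8% of 5349 genes. With 3 genes this share says little about receptors as a class. In the list of other receptor tyrosine kinases it was 2 of 11 (18.2%). At limits of 250 and 1000 bp, MET and FGFR4 were again the 2 genes, beside a background of 24.7% and 38%.

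Lists of 9 windows need care. The q-values behave as Benjamini-Hochberg values computed within each gene, so a q-value together with its p-value gives the place of a window in the order of p-values of that gene. Places that no listed window fills are passing windows that are missing from the table. Such places were found in 663 of 854 protein-coding genes with 9 listed windows (77.6%) and in 8 of 5799 with 1 to 8 (0.138%). A skipped place is harder to detect in a gene with few listed windows, because the smallest number of tested windows that fits is taken. A single window was listed in 1934 protein-coding genes, so the second share may be too low. Of the receptors, 3 had 9 listed windows, and all 3 had skipped places. EGFR reached place 20 with 9 windows listed, so at least 11 passing windows were not listed. IGF1R reached at least place 19, with at least 10 not listed. ERBB2 reached place 10, with at least 1 not listed.

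ERBB3, MET and FGFR4 had no skipped place. The scattered pattern of ERBB3 and the run at the start of MET were therefore seen in lists without a gap. For FGFR4 the absence of a skipped place says little, because its single window gives a single quotient and the smallest fitting number was taken. The positions and signal values of the unlisted EGFR, IGF1R and ERBB2 windows are unknown. Windows are numbered by position along the chromosome, from 1 and never above 9. In a plus-strand gene the listed ones can thus be the 5′-most. The crowding of EGFR and IGF1R windows at the start and the scatter of ERBB2 windows describe the listed windows only. The number of windows tested, read from the same quotient, was 214 in EGFR, 137 in IGF1R, 122 in MET, 83 in ERBB2, 68 in ERBB3 and 22 in FGFR4. The FGFR4 number rests on a single window and is only the smallest that fits.

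**Figure D3:**
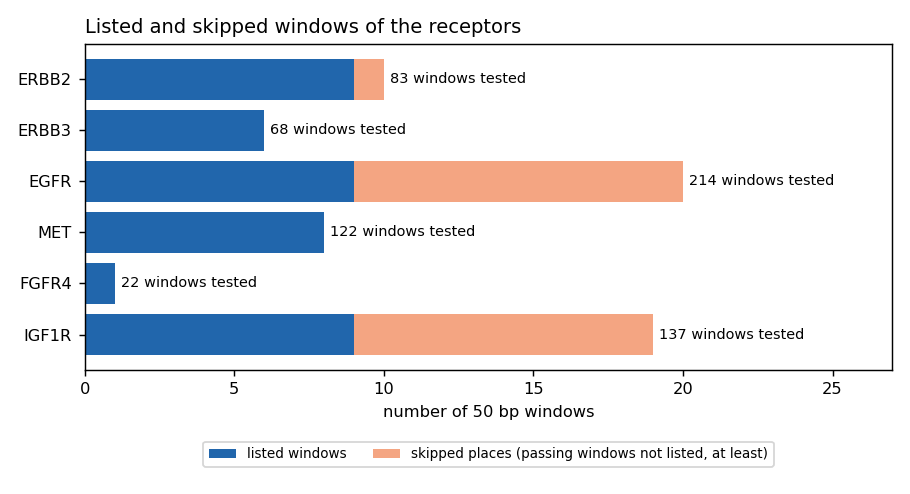
Number of 50 bp windows listed for each receptor (blue) and of skipped places in its order of p-values (orange, a lower bound), with the number of windows tested beside each bar. Skipped places are 11 in EGFR, 10 in IGF1R and 1 in ERBB2, and 0 in the other 3 receptors. For FGFR4, with a single listed window, the 0 says little.

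The rest of the receptor tyrosine kinase family was taken from a list of 50 further genes. A window was listed for 13 of them (26.0%, next to the background of 31.1%), and together with the 8 receptors above this made 19 of 58 (32.8%). Of the 13, 7 had a single window, and 6 had a strongest signal value of at least 2. The median of their strongest windows was 1.94. The largest values were 2.76 in LMTK3 and 2.69 in LMTK2, kinases without a known growth factor ligand, and 2.60 in INSR, the insulin receptor and nearest relative of IGF1R.

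INSR had 8 windows in 7 separate places, with the strongest 26.86 kb from the RefSeq start, and 2 of the 8 lay within 500 bp of the start. No place was skipped in INSR, whereas the IGF1R list is incomplete, so the positions of the windows in the 2 genes cannot be compared. Of the 14 EPH receptors, which bind membrane-anchored ephrins, 4 were listed (EPHA2, EPHB2, EPHB4 and EPHB6), a share near the background of 31.1%. No row was listed for the fourth ERBB gene, ERBB4, nor for KIT, PDGFRA, PDGFRB, RET, ALK, ROS1, KDR and the 3 NTRK genes.

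Genes on either side of the receptors were described by role from a list of 106 signalling genes, of which 43 were listed (40.6%, next to the background of 31.1% of protein-coding genes). Of the ligands of the receptors, 3 of 32 genes were listed (9.4%, background 31.1%). These were NRG1, a neuregulin that binds ERBB3, with a strongest signal value of 2.33, TGFA with 2.00 and AREG, both ligands of EGFR, with 1.71. No row was listed for EGF, HGF, IGF1 or any FGF gene in the list, which left out FGF11 to FGF14. Many ligands come from other cells in a tissue, and their levels in SNU638 were not measured here.

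Adaptors and docking proteins, which carry the signal from the receptor tail, were listed in 13 of 21 genes (61.9%, background 31.1%). PLCG2, a phospholipase recruited by tyrosine kinases, had the strongest window of all these signalling genes at 4.08, above the strongest window of 99.6% of listed protein-coding genes, and it lay 0.69 kb from the RefSeq end. GRB2, which links receptors to SOS, followed with 2.97 and GRB10 with 2.92. No row was listed for GRB7, GRB14, IRS2, FRS2 and FRS3.

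The groups between the adaptors and ERK are small, and their counts stand beside the same background of 31.1%. Of the 8 exchange factors that load RAS with GTP, only SOS1 (2.81) and SOS2 (2.37) were listed. Of 5 RAS genes other than NRAS, MRAS (2.41) and HRAS (2.02) were listed. Among the 10 proteins that switch RAS off, 5 were listed, led by DAB2IP (2.42) and NF1 (2.32). In the RAF-MEK-ERK chain 5 of 10 genes were listed, among them MAP2K1 with the strongest window (2.75) and BRAF (2.28), and MAPK3 had no row.

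Feedback inhibitors and the CBL ubiquitin ligases, which dampen receptor signalling, were listed in 13 of 20 genes (65.0%, background 31.1%). ERRFI1, an inhibitor that binds the kinase of EGFR and ERBB2, had the strongest window of this group at 3.12, listed with a q-value of 0 and beginning 5 bp from the RefSeq start. SPRED1 (2.85) and SPRY2 (2.75) followed. At the low end were the phosphatases DUSP4 (1.51) and DUSP6 (1.20), with 9 windows each, the same pairing of many windows with low values that ERBB2 showed. The medians of the strongest windows were 2.36 for adaptors and 2.33 for feedback inhibitors, beside 2.23 for all listed protein-coding genes. These shares and medians are descriptions of the lists, with no test.

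**Figure D4:**
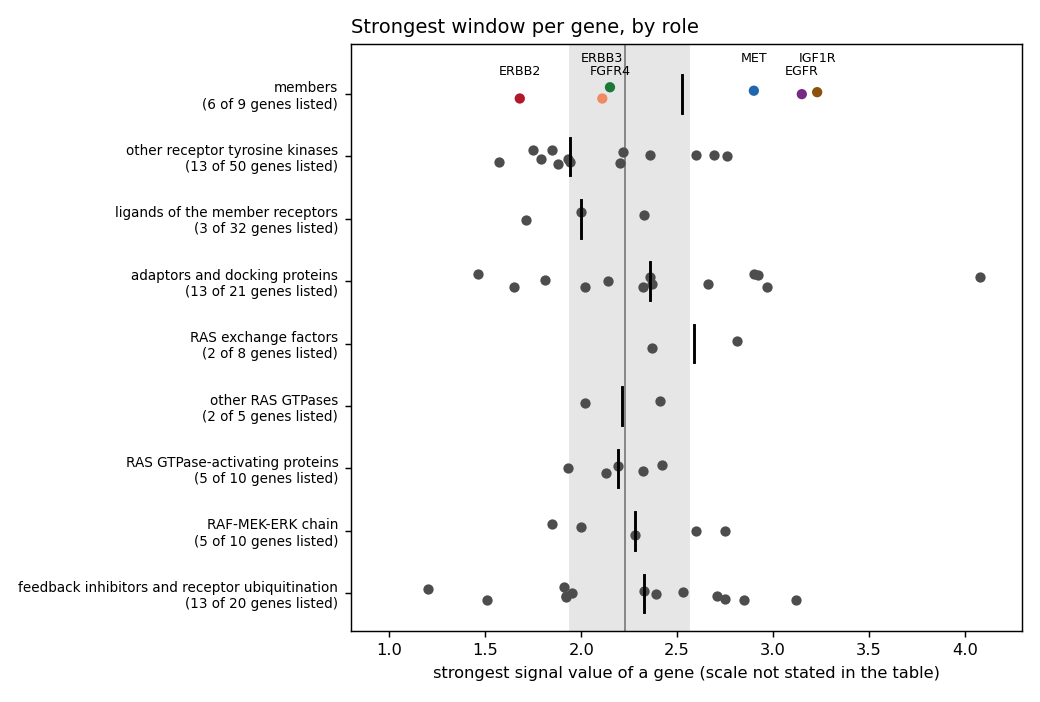
Strongest signal value of each listed gene (horizontal axis, authors' scale) for the 6 listed receptors (top row, coloured and named) and 8 role groups, with black ticks at group medians. The grey band spans the 25th to the 75th percentile of all 6679 listed protein-coding genes and the grey line their median of 2.23. ERBB2 at 1.68 lies left of the band, and MET, EGFR and IGF1R lie right of it.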

How the data were processed

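Per the labels, YTHDF1-bound RNA was isolated with a RIP kit and sequenced as strand-specific, ribosomal RNA-depleted libraries. The submitters' processing notes name STAR 2.7.3a and the build GRCh38. The peak caller, and what was done with multi-mapping reads, are not given in the sources used here. The authors deposited 1 table, with a signal value (a score of unstated scale), a rank, and a p-value and q-value per 50 bp window, all with a q-value of at most 0.05. It holds 0 columns per library, so IP-YTHDF1 was not tested against Input here and depth is unknown.

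Of 26820 rows, 1 repeated row was dropped. Genes were matched by symbol to RefSeq (GRCh38.p14, 20052 protein-coding genes). Of 6674 protein-coding symbols, 6228 matched, and 97.9% of 23165 windows lay inside the RefSeq gene (50 bp tolerance). All 165 listed names matched. Positions are the table's start plus 1 to its end. The window grid coincided with the RefSeq start in 1020 of 3100 plus-strand genes when starts are read as counted from 1, and in 42 when counted from 0, so positions may be 1 base too high.

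The number of windows tested was the smallest for which each quotient of q-value and p-value fits a whole place, within rounding and for p-values above 1e-14. No number was obtained for 47 genes. On simulated data it was within 2% of the truth in 100% of 536 genes with 9 or fewer passing windows and in 94.8% of 960 genes shortened to 9. In 4.9% of the latter the highest place was too high.

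The 9 genes, the lists and the alternatives were chosen with earlier results of these data known. Named were all 9 genes and, in each role group, up to 3 genes with the strongest windows, genes without a window and genes overlapping a member. The listed EPH receptors, DUSP4 and DUSP6 fall outside that rule and were named after their values were seen. Some genes that the rule names are not reported here, but count in their groups. Alternatives were a stricter q-value, a signal minimum, a Bonferroni limit, windows shared between genes left out and joined windows. Python 3.11.15, pandas 2.3.3, NumPy 2.4.6 and matplotlib 3.10.9 were used.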

Additional observations from a re-analysis of the deposited data

How the results depend on the processing

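No paired analysis was possible because each window has 1 value and nothing per library. For the same reason the planned comparison per library and leaving out each replicate were not run. The paper took its protein-coding RIP-seq peaks from the union of replicates. Whether a listed window was called in each replicate is unknown here. Without depth, an unlisted gene is not shown to be unbound. At a q-value of at most 0.001, the 42 windows of the 9 genes fell to 18 and the 9 ERBB2 windows to 2, in 5 genes, and the share of all protein-coding genes with a window went from 31.1% to 20.7%. At a signal value of at least 2, 14 windows in 5 genes were left, 0 of them in ERBB2, and the receptor tyrosine kinase genes with a window went from 19 to 11 of 58, beside 21.6% of all protein-coding genes. A Bonferroni limit over the 330459 windows tested in listed genes left 14 windows in 4 genes, 1 of them in ERBB2. It left 7 of 58 receptor tyrosine kinase genes and 18 of 106 signalling genes, beside 12.2% of all protein-coding genes. Stricter limits remove windows by construction. Joining touching windows gave 24 regions for the 9 genes and still 9 for ERBB2. Counting skipped places, chosen after seeing the data, gave at least 64 windows for the 9 genes and at least 10 for ERBB2. Taken over its windows, the signal value of ERBB2 was 1.35 as the median and 1.39 as the mean, in place of 1.68 for the strongest. Leaving out windows shared with another gene on the same strand removed 1 ERBB3 window and left 6 genes with a window. MET and FGFR4 stayed the 2 genes with the strongest window near the start at the other limits on the distance, which were also chosen after seeing the data.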

Other observations

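ERBB2 lies in a stretch of chromosome 17 that is co-amplified in HER2-positive tumours, and the genes around it were looked at after the ERBB2 windows had been seen. Of the 16 other protein-coding genes within 250 kb of ERBB2 in RefSeq, 4 had a listed window (25%, next to 31.1% of all protein-coding genes). MED1, a subunit of the Mediator complex, and CDK12, a kinase of transcription, had 9 windows each, with strongest signal values of 2.28 and 1.76. ORMDL3, a regulator of sphingolipid synthesis, had 3 windows, the strongest at 2.27. STARD3, a cholesterol transporter 23.9 kb from ERBB2, had 2 windows, the strongest at 1.67. The nearest neighbours on either side, PGAP3 and MIEN1, had no row. Copy number in SNU638 was not analysed here.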
